A study of Rattus norvegicus with 18 samples.

Results

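The proteasome genes measured here encode the subunits of the proteasome, its activators and its assembly chaperones. They were taken as the probe sets annotated to a single gene whose symbol begins with Psma to Psmg followed by a number. This gave 46 of the 14217 genes that a single-gene annotation names on the array, with 60 of its 31042 probe sets other than controls. Of these, Psmc3ip and Psme3ip1, with 1 probe set each, match by their letters but are named after a protein that binds a proteasome protein, and they are left out of every count. The other 44 genes had 58 probe sets, of which 55 passed the filter on low signal (above 40.8 in at least 3 arrays) and covered all 44 genes. The 3 that did not pass were second probe sets of Psmc4, Psmd11 and Psmb5. Where a gene had several, its brightest probe set stood for it. Psmb6, a catalytic subunit of the standard core, and the activator Psme3 lie on probe sets annotated to several genes and were not analysed here. The subunit genes Adrm1 and Sem1 have other symbols, so they are in no count of proteasome genes and are given with the other pathway genes.

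The proteasome is the protease that degrades most ubiquitin-tagged proteins of the cell. Its 20S core is a barrel of stacked alpha and beta rings, with the peptide-cutting sites inside the beta rings. The 19S cap, built of a base with an ATPase ring and a lid, recognises, unfolds and feeds in the substrate, and dedicated chaperones assist the assembly. After exposure to interferon, cells replace the catalytic beta subunits with Psmb8, Psmb9 and Psmb10, which form the immunoproteasome and favour peptides that fit antigen-presenting molecules.

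Lungs of Wistar rats were compared at fetal day 19 (FD19, canalicular lung), fetal day 22 (FD22, prenatal saccular lung) and 5 h after birth (P1, postnatal saccular lung). No genotype or agent distinguished the groups: fetuses were delivered by Caesarean section, newborns vaginally, and every lung was snap-frozen. Each stage had 3 litters with 1 lysate a litter. From every lysate came one total RNA array and one array of mRNA on large polysomes (more than 7 ribosomes per mRNA), so the 9 lysates gave 18 arrays in 6 groups of 3. The mode of delivery therefore changes together with the step from FD22 to P1, and the lysates are whole lung, in which fewer cells of a type and less RNA per cell cannot be told apart.

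A signal is the linear brightness of a probe set, and a change is a difference between means of log2(signal + 5.5) over 3 arrays a group, given with its standard error (SE) from limma. A gene is said to rise, fall, or be higher or lower on polysomes only where the adjusted p was under 0.05 over the 21675 probe sets kept. All arrays had nearly the same trimmed mean signal, so the polysomal over total ratio is relative to the other mRNAs of the lysate. Array medians lay between 51.6 and 73.5. Markers of the distal lung were present: the summed signal of 8 alveolar type II markers was 14835 to 15991 in total RNA at FD19 and 27976 to 33947 at FD22. The total and polysomal arrays of FD22 lysate 2 stood apart. Their Alb signal was 5662.0 and 4891.5, against 31.6 to 147.0 in the other 16 arrays. Several counts of proteasome genes that rest on this lysate are therefore also given without it. The counts of the other gene lists and of the cell type markers are given only with it. Heart transcripts also differed between lysates. At FD22, Myh6 was 527.8, 302.0 and 1062.9 in total RNA, and Nppa was 1073.9, 71.6 and 2708.7 on polysomes. Among polysomal arrays, the one numbered 1 had the lowest median of the 26S genes at each stage.

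**Figure D1:**
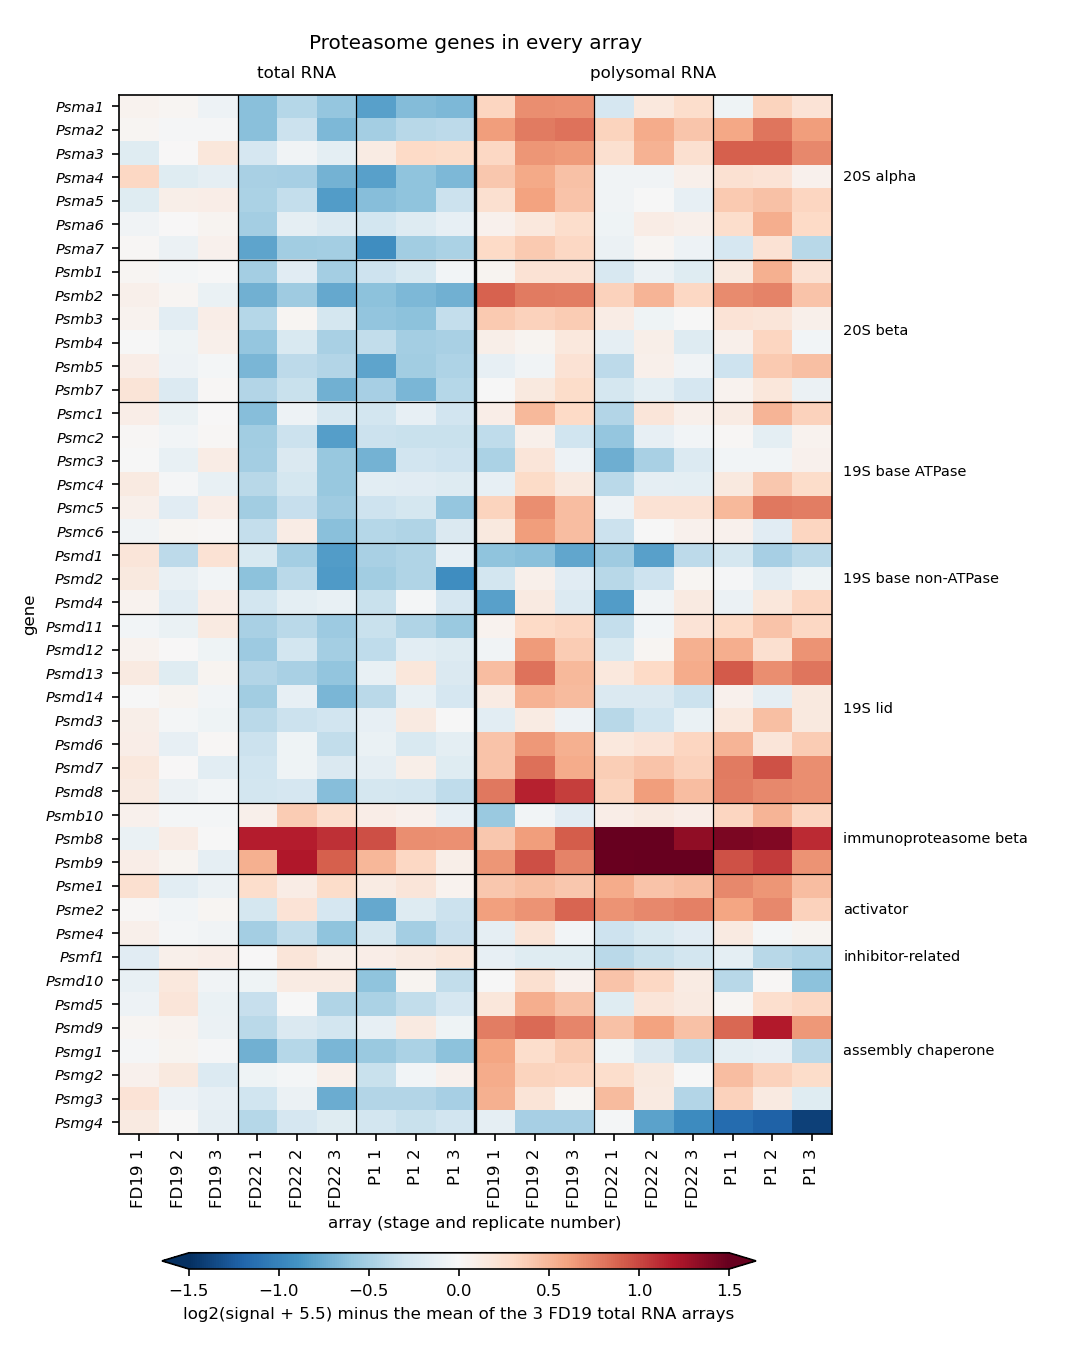
Heat map of 44 proteasome genes (rows, grouped by role) in the 18 arrays (columns), as log2(signal + 5.5) minus the mean of the 3 FD19 total RNA arrays. Most rows are below 0 in total RNA at FD22 and P1 and near or above 0 in polysomal RNA, while Psmb8 and Psmb9 are above 0 at FD22 in both fractions, with values past 1.5 drawn in the darkest shade.

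Between FD19 and FD22 the mRNAs of the standard proteasome declined in total RNA while 2 of the 3 immunoproteasome subunits rose. Of 44 genes, 19 fell and 2 rose, where 7.82% of all probe sets fell and 8.42% rose (16.2% in either direction). Over all genes with 1 probe set each, 10.3% fell and 9.68% rose. The median change of the 44 genes was -0.39, against -0.01 over the 11590 genes measured. All 30 genes of the 26S particle other than the immunoproteasome lay below 0, with 17 called and a median of -0.44. The decline took in each part of the particle: 5 of 7 alpha subunits, 4 of 6 standard beta subunits, 3 of 6 base ATPases, 1 of 3 base non-ATPases and 4 of 8 lid subunits fell. The deepest falls were in the core subunit Psmb2 (-0.67, SE 0.11), the base scaffold Psmd2 (-0.62, SE 0.16), the alpha subunit Psma7 (-0.61, SE 0.15), the assembly chaperone Psmg1 (-0.61, SE 0.13). They were followed by the alpha subunits Psma4 (-0.56, SE 0.13) and Psma5 (-0.56, SE 0.14) and the base ATPase Psmc2 (-0.56, SE 0.15).

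The number of falls changed with the replicate left out, each omission taking both arrays of a lysate. It was 8 without FD19 replicate 3, 9 without FD22 replicate 3 and 10 without FD19 replicate 1. Without FD22 replicate 2, the lysate with the liver signal, it was 18. The median change of the 44 genes in these fits, which held fewer arrays, was -0.40, -0.34, -0.34 and -0.50 in turn. The calls of Psmb2, Psmg1 and Psma4 held under each of the 16 alternatives tried. That of Psmd2 was lost without FD19 replicate 1 (adjusted p = 0.0536), and that of Psma5 without FD19 replicate 3 (0.0554) or FD22 replicate 3 (0.0572). That of Psmc2 was lost without FD19 replicate 3 (0.0595) or FD22 replicate 3 (0.0749). Markers of proliferating cells fell over the same interval: 10 of 10 measured were lower in total RNA, with a median of -1.47, and their summed signal went from 7668 to 7745 at FD19 to 2613 to 3799 at FD22. Whether this bears on the proteasome genes was not tested.

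The standard catalytic subunit Psmb5, which carries the chymotrypsin-like activity, had total RNA signals of 2081, 1845 and 1902.5 at FD19, 1205, 1477 and 1434 at FD22, and 1120.1, 1345 and 1410.3 at P1. On polysomes the signals were 1784, 1865 and 2256.5 at FD19, 1480.1, 2053.5 and 1867 at FD22, and 1561, 2549 and 2653 at P1. In total RNA the FD19 arrays were all above those of the later stages, whereas the polysomal groups overlapped. The fall in total RNA was -0.50 (SE 0.17, adjusted p = 0.0541) at FD22 and not called, and -0.59 (SE 0.17, adjusted p = 0.0157) at P1 against FD19, where the call was lost without FD19 replicate 1 (adjusted p = 0.0645) or with the probe sets of each gene averaged (0.187). The FD22 change was called with the stricter filter (0.043) and with median centring (0.0148).

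Psmb7, which carries the trypsin-like activity, had total RNA signals of 1419.6, 1075 and 1255 at FD19, 915, 988 and 752 at FD22, and 879, 770.4 and 925 at P1. Its polysomal signals were 1241, 1376 and 1499.5, then 1034, 1123 and 1042, then 1290.2, 1402 and 1166. Total RNA dropped below the lowest FD19 array at both later stages, and the P1 polysomal arrays were all above those of FD22. The fall in total RNA from FD19 to FD22 was -0.50 (SE 0.13, adjusted p = 0.013) and that on polysomes -0.36 (SE 0.13, adjusted p = 0.0702), the latter not called. The call in total RNA was lost without FD19 replicate 1 (0.0802), FD19 replicate 3 (0.051) or FD22 replicate 3 (0.0819), and with the arrays numbered 1 left out (0.114). The polysomal change was called with quantile normalization (0.0398).

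Psmb2, a structural subunit of the beta ring, had the highest mean polysomal over total ratio of the 44 genes. Its total RNA signals were 948, 918 and 842 at FD19, 545, 622 and 526.5 at FD22, and 588, 562 and 546.5 at P1. On polysomes they were 1665, 1555 and 1535 at FD19, 1151, 1288 and 1122 at FD22, and 1477, 1514 and 1219 at P1. Every polysomal array was above every total RNA array of any stage. The polysomal over total ratio was 0.81, 0.76 and 0.86 in the FD19 lysates, 1.07, 1.04 and 1.08 at FD22, and 1.32, 1.42 and 1.15 at P1, with a mean over the stages of 1.06 (SE 0.06, adjusted p = 5.12e-10).

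The promoters of Psmb2 and Psmb5 are shown because they belong to the 7 of 40 matched proteasome promoters that hold the core of an antioxidant response element, TGACNNNGC, a sequence recognised by factors of the NRF family that are known to drive proteasome genes under stress. Over all 27457 promoter windows of the same length, 12.2% hold it on either strand. Each window is 300 bases, 250 before and 50 after the transcription start, from RefSeq on GRCr8, printed 5′ to 3′ on the strand of the gene (Psmb2, chr5:144254808-144255107, plus strand; Psmb5, chr15:32047330-32047629, minus strand). Capitals mark matches to TGACNNNGC and, in Psmb2, to the CCAAT box (CCAAT, or ATTGG where it lies on the other strand). In Psmb2 the match from -68 to -60 shares its first base with a CCAAT box from -72 to -68, so the capitals run on.
Psmb2: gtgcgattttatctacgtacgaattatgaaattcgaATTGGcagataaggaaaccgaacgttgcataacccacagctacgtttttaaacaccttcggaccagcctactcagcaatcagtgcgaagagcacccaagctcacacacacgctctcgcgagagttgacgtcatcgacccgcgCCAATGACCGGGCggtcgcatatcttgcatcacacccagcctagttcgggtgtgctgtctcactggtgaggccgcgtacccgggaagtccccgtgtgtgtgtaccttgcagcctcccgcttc
Psmb5: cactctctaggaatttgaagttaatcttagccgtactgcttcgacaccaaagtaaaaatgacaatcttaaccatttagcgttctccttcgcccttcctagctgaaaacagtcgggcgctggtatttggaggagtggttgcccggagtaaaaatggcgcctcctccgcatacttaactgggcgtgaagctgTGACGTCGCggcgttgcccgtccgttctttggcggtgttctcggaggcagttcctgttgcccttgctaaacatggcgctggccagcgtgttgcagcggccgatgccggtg
A match describes the letters of the window and not a bound site. The CCAAT box was in 20 of the 40 proteasome promoters and in 37.7% of all windows, and the Ets site CCGGAAG was in 13 of the 40 and 9.22% of all.

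Of the 19S cap, 8 of 17 genes fell in total RNA from FD19 to FD22, as counted above. At P1 against FD19 fewer of them were lower: 0 of 6 base ATPases (median -0.35), 1 of 3 base non-ATPases and 1 of 8 lid subunits (median -0.20), beside 5 of 7 alpha (median -0.52) and 5 of 6 standard beta subunits (median -0.53). Of all probe sets, 13.7% were lower in this comparison, so the cap counts are near that share. The difference between cap and core was not tested. Psmd14, the lid enzyme that removes ubiquitin chains from the substrate, had total RNA signals of 519, 536.5 and 506 at FD19, 362, 478 and 323 at FD22, and 391, 481 and 437 at P1. Its polysomal signals were 569, 749.7 and 725 at FD19, 446, 448 and 416 at FD22, and 545, 475.5 and 579 at P1. In both fractions the FD19 arrays lay above those of FD22 without overlap. Psmd14 fell from FD19 to FD22 by 0.44 in total RNA (SE 0.15, adjusted p = 0.0479) and by 0.63 on polysomes (SE 0.15, adjusted p = 0.00613). The total RNA call was lost without FD19 replicates 1, 2 or 3 or FD22 replicates 1 or 3 (adjusted p from 0.0908 to 0.214) and under several other settings (7 of 16 alternatives kept it), and the polysomal call without FD19 replicate 2 (0.0541).

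Psmd4, the ubiquitin receptor of the base also known as Rpn10, had no call in any comparison. Its total RNA signals were 394.5, 340.0 and 408 at FD19, 314, 344 and 351 at FD22, and 299.5, 373 and 317 at P1. On polysomes it gave 214, 416 and 329.6, then 209.5, 365 and 417, then 357, 429 and 475. The arrays numbered 1 were low on polysomes at FD19 and FD22. Its change in total RNA from FD19 to FD22 was -0.17, with a 95% interval of -0.65 to 0.30, wide enough to hold the median fall of the 26S genes.

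On polysomes the step from FD19 to FD22 was in the same direction with fewer calls. Of 44 genes, 8 fell and 2 rose, where 7.70% of all probe sets fell and 8.22% rose, and the median was -0.26 against -0.02 over all genes. The deepest falls were in Psmd14, in Psmg1 (-0.62, SE 0.13), in the alpha subunit Psma1 (-0.52, SE 0.14) and in the lid subunit Psmd8 (-0.52, SE 0.13). Psma4 (-0.48, SE 0.13) and Psma5 (-0.48, SE 0.14) came next. The count of falls was 1 without FD19 replicate 2 and 5 without FD19 replicate 3, and 7 without FD22 replicate 2. The falls of Psmg1 held under all 16 alternatives, and that of Psma1 was lost without FD19 replicate 2 (adjusted p = 0.109), FD19 replicate 3 (0.0901) or FD22 replicate 1 (0.102). That of Psmd8 was lost without FD19 replicate 2 (0.0809).

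**Figure D2:**
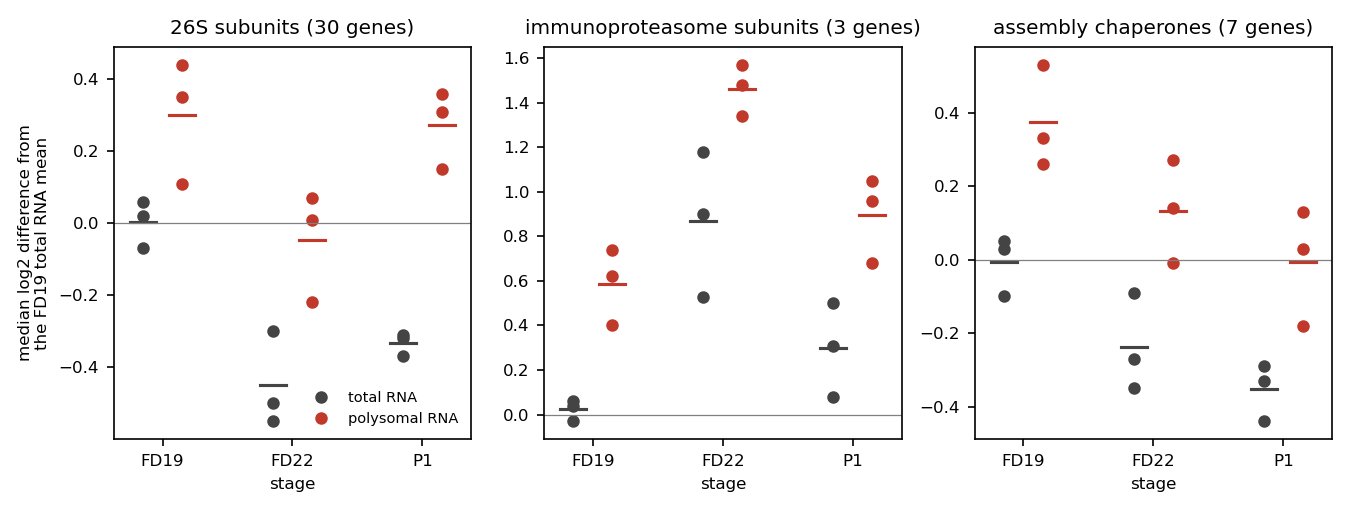
Median over the genes of a role group in each array, as log2 difference from the FD19 total RNA mean, against stage; dark grey points are total RNA, red points polysomal RNA, and the short lines are means of 3 arrays. The 26S genes sit at -0.55 to -0.30 in total RNA at FD22 and at -0.22 to 0.07 on polysomes, and the immunoproteasome genes at 0.53 to 1.18 and 1.34 to 1.57.

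Of the immunoproteasome subunits, Psmb8 and Psmb9 rose from FD19 to FD22 in both fractions, and Psmb10 was not called in either. Psmb8, which takes the place of Psmb5, had total RNA signals of 29.2, 34.9 and 31.6 at FD19, 78.7, 79.0 and 74.1 at FD22, and 67.3, 54.9 and 54.6 at P1. Its polysomal signals were 43.9, 52.0 and 64.6 at FD19, 102, 110.1 and 88.7 at FD22, and 93.6, 92.2 and 75.8 at P1. In both fractions the FD19 arrays were the lowest, with no overlap with either later stage. Psmb8 rose from FD19 to FD22 by 1.15 in total RNA (SE 0.17, adjusted p = 0.000151), which is 2.22-fold on the scale with the constant added, and by 0.85 on polysomes (SE 0.17, adjusted p = 0.00221). The FD19 total RNA signals are below the level of the filter, so the size of this rise depends on the constant added. The log2 change in total RNA ranged from 0.83 to 1.26 over 15 alternatives. With the stricter filter Psmb8 was not tested.

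Psmb9, which takes the place of Psmb6, had total RNA signals of 75.3, 71.9 and 63.3 at FD19, 103, 168 and 136 at FD22, and 102, 87.9 and 74.5 at P1. On polysomes the signals were 114, 142 and 121 at FD19, 205, 218 and 212 at FD22, and 141, 151 and 115 at P1. Both fractions peaked at FD22, and the P1 arrays overlapped those of FD19. The rise from FD19 to FD22 was 0.88 in total RNA (SE 0.17, adjusted p = 0.00159) and 0.74 on polysomes (SE 0.17, adjusted p = 0.00631), and both calls held under all 16 alternatives. From FD22 to P1 it fell by 0.63 on polysomes (SE 0.17, adjusted p = 0.0309). The call held under 8 of 16 alternatives and was lost without FD22 replicate 2 (0.069) or 3 (0.0651), without P1 replicate 1 (0.0586), 2 (0.051) or 3 (0.127), and with quantile normalization (0.0775) or median centring (0.066). In total RNA the same step was -0.58 (SE 0.17, adjusted p = 0.0723) and not called, and it was called without FD22 replicate 1 (0.0312).

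Psmb10, which takes the place of Psmb7, was called in 1 comparison. Its total RNA signals were 127, 119 and 118 at FD19, 128, 159 and 145.5 at FD22, and 130.1, 127 and 111 at P1. Its polysomal signals were 80.7, 118 and 107.5 at FD19, 129.9, 134 and 130.4 at FD22, and 153, 174 and 153 at P1. The polysomal groups lay in the order FD19, FD22 and P1 without overlap, whereas the total RNA groups of FD19 and P1 overlapped. The change in total RNA at FD22 was 0.24 (SE 0.15, adjusted p = 0.327) and not called. On polysomes it rose from FD19 to P1 by 0.64 (SE 0.15, adjusted p = 0.00303), with the call kept under all 16 alternatives.

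**Figure D3:**
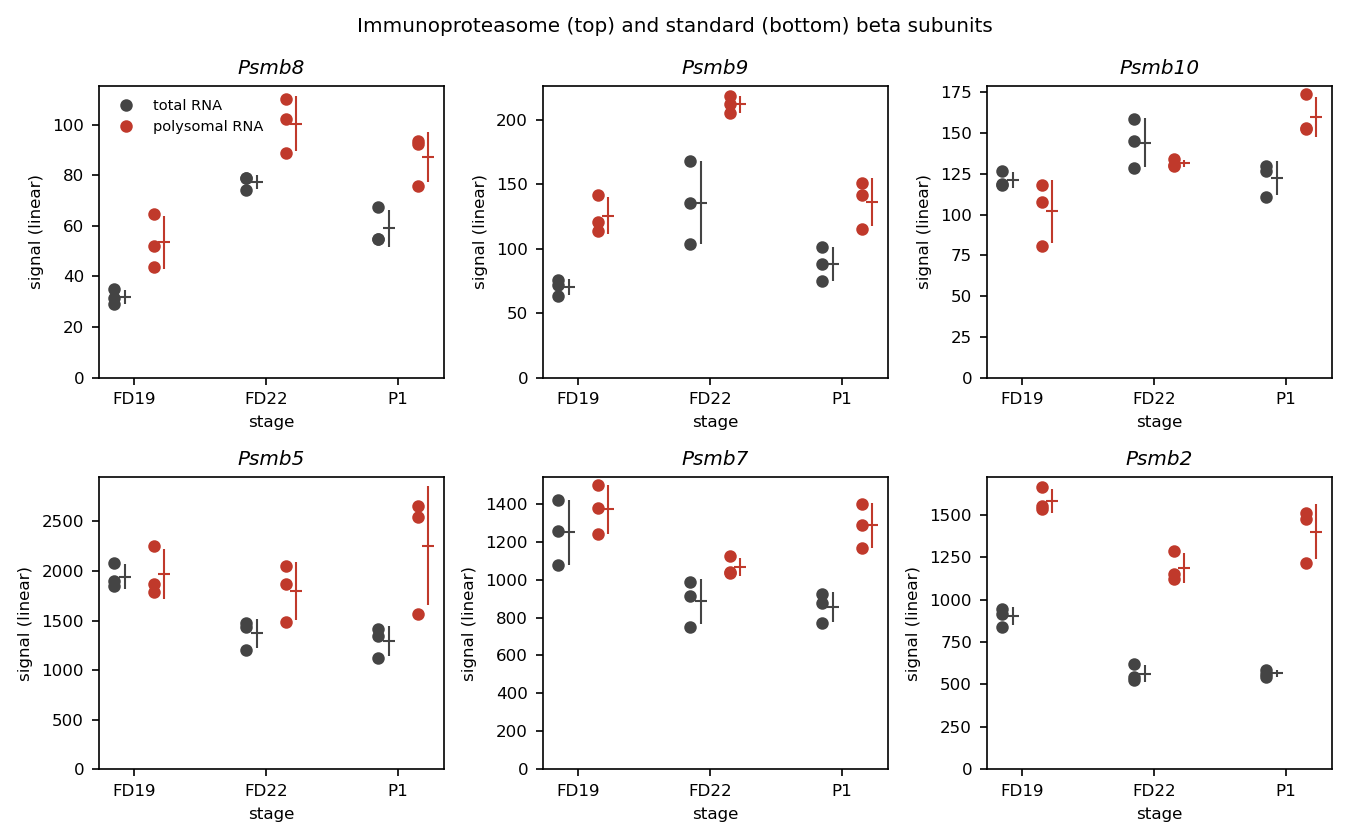
Signal (linear, axis from 0) of the immunoproteasome subunits Psmb8, Psmb9 and Psmb10 (upper row) and the standard beta subunits Psmb5, Psmb7 and Psmb2 (lower row) by stage; points are arrays, dark grey for total and red for polysomal RNA, and the bars are mean ± SD of 3 arrays. Psmb8 and Psmb9 are highest at FD22 in both fractions, and Psmb5, Psmb7 and Psmb2 in total RNA are highest at FD19. Levels of different probe sets are not comparable.

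The promoters of Psmb8 and Psmb10 are shown because each holds the core of an interferon-stimulated response element (GAAA, any 2 bases, GAAA), searched on both strands, which is in 7 of the 40 matched proteasome promoters and in 3.77% of all windows. The other 5 holders are Psma4, Psmb3, Psmd7, Psme2 and Psmg4, of which 3 are standard 26S subunits and Psma4 fell in total RNA from FD19 to FD22. The third immunoproteasome promoter, that of Psmb9, has no match to this core in its window. The windows are again RefSeq sequence on GRCr8, 5′ to 3′ on the strand of the gene (Psmb8, chr20:4656982-4657281, minus strand; Psmb10, chr19:50743243-50743542, minus strand). Capitals mark the matches: in Psmb8 a gamma interferon activation site, TTCNNNGAA, from -245 to -237, a CCAAT box on the other strand, and the response element core on the other strand from -4 to 5; in Psmb10 the response element core from -73 to -64 and from -17 to -8.
Psmb8: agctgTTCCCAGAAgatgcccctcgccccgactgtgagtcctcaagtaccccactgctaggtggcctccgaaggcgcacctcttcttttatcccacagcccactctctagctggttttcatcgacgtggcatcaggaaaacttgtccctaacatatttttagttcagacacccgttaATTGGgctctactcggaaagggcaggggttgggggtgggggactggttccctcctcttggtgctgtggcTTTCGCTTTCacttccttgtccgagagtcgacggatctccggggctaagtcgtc
Psmb10: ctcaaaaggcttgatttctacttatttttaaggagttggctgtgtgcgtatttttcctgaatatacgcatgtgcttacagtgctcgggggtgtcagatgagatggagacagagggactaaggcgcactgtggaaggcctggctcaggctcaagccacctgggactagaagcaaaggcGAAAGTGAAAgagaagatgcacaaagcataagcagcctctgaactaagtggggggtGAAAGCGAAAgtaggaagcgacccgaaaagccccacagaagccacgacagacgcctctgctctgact
The activation site was in 4 of the 40 promoters and in 8.68% of all windows. Psmb8 and Psmb9 lie on chromosome 20 beside the peptide transporter genes: Tap2 at 4638257 to 4652296, Psmb8 at 4654068 to 4657049, Tap1 at 4658171 to 4668543 and Psmb9 at 4668952 to 4674421, while Psmb10 is on chromosome 19. Tap1 itself had total RNA signals of 6.3, 5.6 and 2.3 at FD19, 44.2, 40.9 and 44.8 at FD22, and 31.1, 36.4 and 19.5 at P1. Its FD19 arrays were all far below the filter level, and Tap2 was on the array but did not pass the filter.

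Genes of the interferon response and of antigen presentation were counted beside the immunoproteasome. Of 27 listed, 24 were on the array and 21 measured: in total RNA 11 rose and 2 fell from FD19 to FD22, where 9.68% of all genes rose and 10.3% fell. Of the 21 genes, 6 (Tap1, RT1-CE5, Isg15, Mx1, Mx2 and Gbp2) averaged below the filter level in both fractions at FD19 and in neither at FD22, so they counted as measured through the later stages and the count is a description. The ubiquitin-like modifier Isg15 had total RNA signals of 8.1, 9.1 and 5.9 at FD19 and 76.1, 88.2 and 87.0 at FD22. Like Tap1 it was called higher, but its FD19 signals are near the constant added, so no size of change is given for either gene. Genes above the filter level that rose included the class I antigen gene RT1-S3 (1.42, SE 0.18), the interferon signalling factor Irf9 (1.27, SE 0.19), the transcription factor Irf1 (0.75, SE 0.18) and B2m (0.62, SE 0.15), the light chain of class I molecules. The 2 falls were in the chaperones Calr (-0.53, SE 0.17) and Canx (-0.46, SE 0.13). On polysomes 13 of the 21 rose and 0 fell over the same interval, with the same 6 below the filter level at FD19. Of all probe sets, 8.22% rose and 7.70% fell on polysomes in that interval. From FD22 to P1 the membrane protein Ifitm3 was the only one called in each fraction (0.54, SE 0.10, in total RNA and 0.48, SE 0.10, on polysomes). Of all probe sets, 2.21% rose in total RNA and 3.79% on polysomes in that step.

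Markers of several cell types were higher at FD22 than at FD19 in total RNA. They were 6 of 6 of alveolar type I cells (median 2.17), 7 of 8 of alveolar type II cells (1.21), 3 of 3 of airway cells (1.21) and 5 of 5 of endothelium (0.76), while 4 of 8 erythroid markers were lower (median -0.90). The type I marker Aqp5 averaged below the filter level at FD19, and the erythroid marker Hbz did so at FD22. Each counted as measured through other arrays, so both of these counts are a description. Of 5 mesenchyme markers, 1 was higher and 2 were lower (median -0.15). Over all probe sets, 8.42% rose and 7.82% fell in this comparison. Of 18 leukocyte markers listed, 16 were measured and 13 were higher in total RNA at FD22, with a median of 1.08, and their summed signal went from 3611 to 3751 at FD19 to 9083 to 12999 at FD22 and 10199 to 11080 at P1. Itgam and Cd79b were on the array but did not pass the filter, and the T cell gene Cd3e averaged below the filter level at FD19 and P1. The part of any of these cell types in the changes of Psmb8 and Psmb9 was not tested. The 4 thymus markers listed were not measured.

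The activators are given gene by gene. Psme1 and Psme2 form the ring that caps the core under interferon. Psme1 had total RNA signals of 911, 689.6 and 719.6 at FD19, 919, 831 and 934 at FD22, and 837, 871 and 794 at P1, and polysomal signals of 1019, 1055 and 1015, then 1129.8, 1033 and 1063, then 1272, 1218 and 1059.9. The total RNA groups overlapped, and the change from FD19 to FD22 was 0.22 (SE 0.12, adjusted p = 0.229). Psme2 gave 390.5, 372 and 391 at FD19, 319, 445 and 323 at FD22, and 224, 336 and 307 at P1 in total RNA, and 591, 618 and 707, then 616, 637 and 651, then 583.5, 639 and 489.5 on polysomes. All of its polysomal arrays were above all of its total RNA arrays. Neither gene was called between stages in either fraction, but the change of Psme2 in total RNA from FD19 to P1 (-0.43, adjusted p = 0.0527) was called with the replicate number as a block (adjusted p = 0.0299). Psme4, a separate activator known as PA200, fell in total RNA from FD19 to FD22 (-0.50, SE 0.12), but its other 2 probe sets, at -0.08 and -0.31, were not called.

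Across birth, from FD22 to P1, 0 of the 44 genes were called in total RNA with limma. Of all probe sets 3.97% were called, 2.21% higher and 1.76% lower. At an unadjusted p under 0.05, 3 of the 44 were higher and 3 lower, and of all 11590 genes 967 were higher and 1309 lower, so these counts are near the background. The median was 0.02, against -0.05 over all genes. The smallest p-values belonged to Psmb9 (above), to the lid subunit Psmd13 (0.45, SE 0.15, adjusted p = 0.0978) and to the alpha subunit Psma3 (0.39, SE 0.13, adjusted p = 0.127). Without FD22 replicate 2 the count was again 0, and without FD22 replicate 1 it was 1, a lower value of Psmb9.

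On polysomes the same step had calls. Of 44 genes, 5 rose and 3 fell, where 3.79% of all probe sets rose and 4.55% fell (8.34% in either direction). The split was 9 to 0 with the arrays centred on their medians and 3 to 0 with quantile normalization. The median was 0.23 against -0.03 over all genes, and 29 of the 30 genes of the 26S particle lay above 0. The 5 that rose were all of that particle: the base ATPases Psmc5 (0.57, SE 0.14, adjusted p = 0.0196) and Psmc4 (0.51, SE 0.13, adjusted p = 0.0231), the lid subunit Psmd3 (0.53, SE 0.13, adjusted p = 0.0169), Psma3 (0.50, SE 0.13, adjusted p = 0.0256) and the beta subunit Psmb1 (0.47, SE 0.12, adjusted p = 0.0219). The 3 that fell were Psmb9 and the assembly chaperones Psmg4 (-0.66, SE 0.19, adjusted p = 0.0325) and Psmd10 (-0.62, SE 0.18, adjusted p = 0.0344), also known as gankyrin.

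These calls rested on few arrays. The number that rose was 0 without FD22 replicate 1 or P1 replicate 2 and 3 without P1 replicate 3. The number that fell was 0 without P1 replicate 1 or 3, and 1 without FD22 replicates 1 or 2 or P1 replicate 2. Leaving out FD22 replicate 2, with the liver signal, left 4 that rose. With the arrays numbered 1 left out of every group the counts were 0 and 0, while the stricter filter gave 9 that rose.

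Psmc5 had polysomal signals of 428, 555.5 and 469.7 at FD19, 321, 394 and 396 at FD22, and 479, 590.1 and 583 at P1, and total RNA signals of 358, 302 and 363, then 236, 266 and 234, then 273, 283 and 225. On polysomes the FD22 arrays were the lowest group, and in total RNA FD22 and P1 overlapped.

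**Figure D4:**
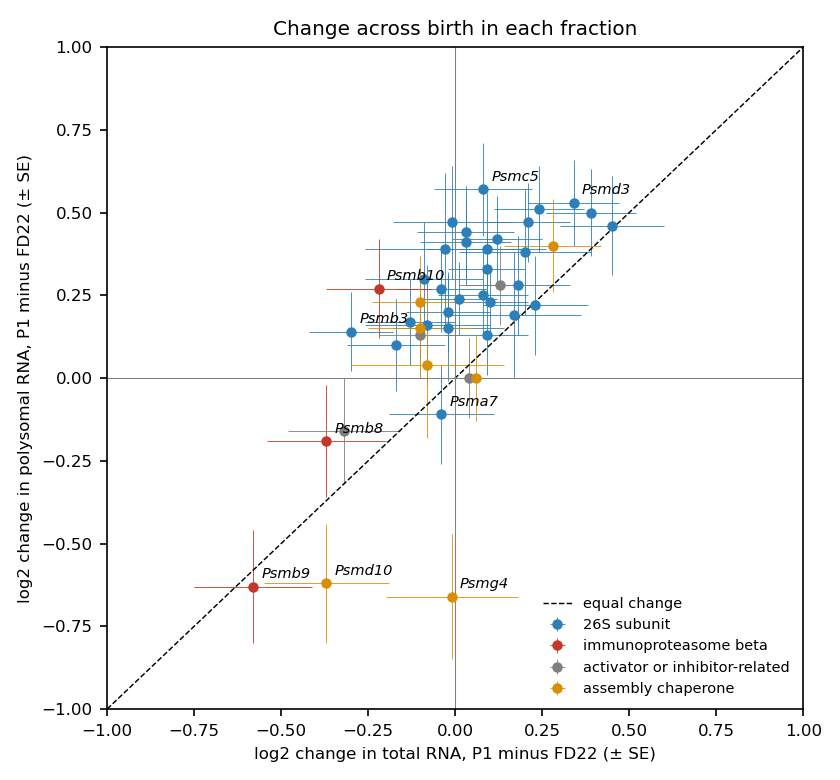
Change from FD22 to P1 of 44 proteasome genes in total RNA (horizontal) and polysomal RNA (vertical), in log2 units with the SE of limma as bars; colours are role groups and the dashed line marks equal change. Most 26S genes sit above the line, Psmc5 at 0.08 and 0.57, and Psmg4 sits below it at -0.01 and -0.66.

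Polysomal and total RNA of the same lysate were compared next, which asks how much of an mRNA is on large polysomes relative to the other mRNAs. Over the mean of the 3 stages, 35 of 44 genes were higher on polysomes and 2 lower, where 18.8% of all probe sets were higher and 27.6% lower (46.4% in either direction). Over all genes with 1 probe set each, as the 44 were counted, 24.9% were higher and 22.2% lower. The median ratio was 0.39, against 0.00 over all genes measured. All 7 alpha subunits, all 6 standard beta subunits, 7 of 8 lid subunits and 3 of 3 activators were higher, against 4 of 6 base ATPases and 1 of 3 base non-ATPases. The highest mean ratios were those of Psmb2, Psmd8 (0.97, SE 0.08), the alpha subunit Psma2 (0.94, SE 0.06), Psme2 (0.84, SE 0.09), the assembly chaperone Psmd9 (0.83, SE 0.08) and Psmd13 (0.76, SE 0.08), and each held under all 19 alternatives. Psmd8, for example, had total RNA signals of 541, 463.5 and 481 at FD19, 407, 413.5 and 315 at FD22, and 410.4, 406 and 378 at P1. Its polysomal signals were 859.9, 1105 and 1017, then 624, 768 and 681, then 847, 818 and 804. Every polysomal array was above every total RNA array, as for Psmb2.

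Few of the 44 genes were lower on polysomes. The cap subunits Adrm1 and Sem1, outside this count by their symbols, were lower as well and are given below. Psmg4, a chaperone of core assembly, had a mean ratio of -0.55 (SE 0.11, adjusted p = 0.000472), kept under all 19 alternatives. Its total RNA signals were 364, 329.8 and 301 at FD19, 244, 277 and 291.5 at FD22, and 271, 261.5 and 270.0 at P1, against 300.1, 232 and 233, then 323.5, 187.5 and 170.0, then 146, 139.7 and 122 on polysomes. Total RNA of FD22 and P1 overlapped while the P1 polysomal arrays were the lowest of all. Psmf1, whose product inhibits the core, had a mean ratio of -0.36 (SE 0.07, adjusted p = 0.00045), lost with median centring of the arrays (adjusted p = 0.0975). Its total RNA signals were 308, 367 and 373 at FD19, 350.2, 397 and 371 at FD22, and 374.5, 383 and 391.7 at P1, against 319.9, 308 and 306, then 261, 276 and 285.5, then 313, 259 and 251 on polysomes. The fractions overlapped at FD19 and were apart at FD22 and P1. Psmd1, the largest base scaffold, was lower on polysomes at FD19 (-0.67, SE 0.19, adjusted p = 0.0163) but not without FD19 replicate 1 (0.0963) or 3 (0.192), and its mean ratio of -0.25 (SE 0.11, adjusted p = 0.062) was not called.

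Of the other 6 assembly chaperones, 5 were higher on polysomes. Psmg1 had total RNA signals of 431, 450.1 and 430.1 at FD19, 263, 325 and 269.7 at FD22, and 296, 312 and 284 at P1, and polysomal signals of 662, 526 and 566, then 419, 376 and 336, then 396, 401 and 330.1. Both fractions dropped after FD19 without overlap. Its mean ratio was 0.38 (SE 0.08, adjusted p = 0.000596), and its polysomal signal at P1 against FD19 was -0.63 (SE 0.13, adjusted p = 0.0013).

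Psme1 needs a reservation. Its second probe set, with signals of 3.1 to 99.1 and no accession in the annotation, was lower on polysomes (mean ratio -1.66) while the bright one was higher (0.39, SE 0.07). With both averaged, the mean ratio of Psme1 was -0.63 (adjusted p = 0.00229). For Psmd11, Psmd9 and 2 probe sets of Psme4 the dimmer probe sets had mean ratios of -0.17 to 0.06 without a call, whereas those of Psmd7 and 1 each of Psmc6 and Psmd14 were called higher as well.

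In each single lysate most proteasome genes had more signal on polysomes. The number of the 44 genes with polysomal above total signal was 31, 40 and 35 in the FD19 lysates, 38, 36 and 40 at FD22 and 42, 39 and 40 at P1. The median ratio of these genes was 0.15, 0.43 and 0.31 at FD19, 0.36, 0.25 and 0.44 at FD22 and 0.55, 0.61 and 0.46 at P1. Of all probe sets, 42.3% to 48.2% had polysomal above total signal in a single lysate. Over all probe sets the median lay between -0.10 and -0.03 in the 9 lysates, below the lowest proteasome median. The 3 P1 lysates were the highest of the 9.

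By stage, 19 genes were higher on polysomes at FD19 (9.97% of all probe sets were), 17 at FD22 (6.76%) and 31 at P1 (8.12%), with medians of 0.35, 0.35 and 0.56. These shares count every probe set kept, whereas each proteasome gene counts once. Over the mean of the stages, the share higher was larger when counted by gene, as given above. At FD19 the highest ratios were those of Psmd8 (0.99, SE 0.13), Psmb2 (0.81, SE 0.11), Psmb9 (0.79, SE 0.17) and Psmd9 (0.78, SE 0.14). At FD22 Psmb2 (1.07, SE 0.11), Psma2 (0.98, SE 0.11), Psmd8 (0.86, SE 0.13) and Psmd13 (0.85, SE 0.15) led. At P1 they were Psmb2 (1.30, SE 0.11), Psma2 (1.11, SE 0.11), Psmc5 (1.07, SE 0.14) and Psmd8 (1.04, SE 0.13). Those lower numbered 1, 1 and 2, where 10.9%, 8.60% and 10.4% of all probe sets were lower. They were Psmd1 at FD19, Psmf1 at FD22 (-0.43, SE 0.12) and, at P1, Psmg4 (-0.95, SE 0.19) and Psmf1 (-0.48, SE 0.12). With the lysate as a block the counts higher were 22, 22 and 33, with Psmb5 (0.38, adjusted p = 0.025) and Psmg1 (0.39, adjusted p = 0.03) among the genes added at FD22. The count at FD19 was 5 without replicate 2 and 7 without replicate 3, that at FD22 7 without replicate 3 and 12 without replicate 2, and that at P1 19 without replicate 1 or replicate 2. These counts do not show a difference between stages, which needs the test of the ratio change.

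**Figure D5:**
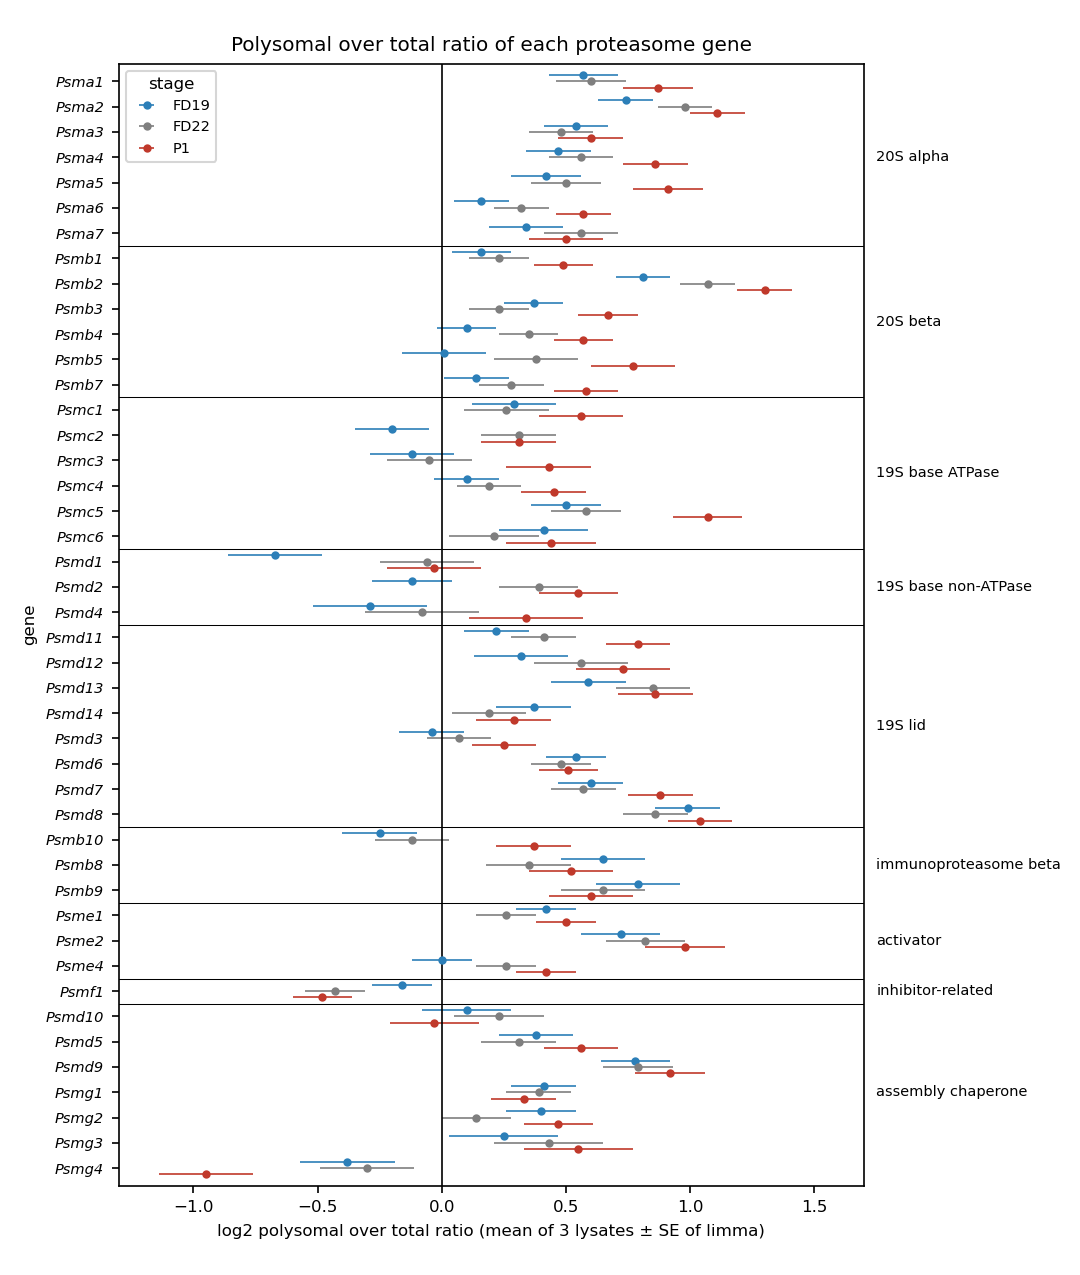
Polysomal over total ratio (log2, mean of 3 lysates, bars are the SE of limma) of 44 proteasome genes by role, with FD19 in blue, FD22 in grey and P1 in red. Most points lie right of 0, the P1 point is often the furthest right, as for Psmb2 at 1.30, and Psmg4 and Psmf1 lie left of 0.

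No ratio change passed the test, which had little power for small changes. On simulated data, the fitting code called 1.5% of 1.5-fold and 31.3% of 2-fold changes in the FD22 to P1 ratio. The absence of a call therefore does not show that a ratio stayed the same. From FD22 to P1 the median change over the 44 genes was 0.20, against 0.02 over all genes, and 28 of the 30 genes of the 26S particle were above 0, but 0 were called with limma, and 0.0138% of all probe sets were. At an unadjusted p under 0.05, 4 of the 44 were higher and 1 lower, and of all 11590 genes 223 were higher and 371 lower. The smallest p-values were those of Psmb3 (0.44, SE 0.17, adjusted p = 0.89), Psmg4 (-0.65, SE 0.26, adjusted p = 0.947) and Psmc5 (0.49, SE 0.20, adjusted p = 0.972). From FD19 to FD22 the median was 0.08, with 0 called among the 44 genes and among all probe sets, and 3 of the 44 higher at an unadjusted p under 0.05 (Psmc2, Psmd1 and Psmd2), as were 252 of the 11590 genes.

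Between FD19 and P1, a comparison added after the ratios were seen, the median was 0.30 against 0.02 over all genes. No gene was called with limma (0.115% of all probe sets were, 0.00461% higher and 0.111% lower). Of the 44 genes, 16 were higher and 1 lower at an unadjusted p under 0.05, and of all 11590 genes 657 were higher and 679 lower by that measure. Psmb5 went from ratios of -0.22, 0.02 and 0.25 in the FD19 lysates to 0.30, 0.47 and 0.38 at FD22 and 0.48, 0.92 and 0.91 at P1. Its P1 lysates were all above its FD19 lysates, with a change of 0.76 (SE 0.25, adjusted p = 0.258), which was called when the lysate entered as a block (adjusted p = 0.0405). Psmb2 (0.49, SE 0.16, adjusted p = 0.257) and the lid subunit Psmd11 (0.57, SE 0.18, adjusted p = 0.249) had the other smallest p-values.

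From FD19 to P1 the fractions can be set side by side, although the comparisons share their FD19 arrays with those above. In total RNA 14 genes were lower and 1 higher at P1 (13.7% and 12.4% of all probe sets, 26.2% in either direction), with a median of -0.32, and the one higher was Psmb8 (0.78, SE 0.17). The deepest falls were in Psma1 (-0.71, SE 0.14), Psma4 (-0.69, SE 0.13), Psmb2 (-0.67, SE 0.11), Psmd2 (-0.64, SE 0.16), Psma7 (-0.64, SE 0.15) and Psmb5. On polysomes 4 were lower and 2 higher (15.8% and 13.1% of all probe sets, 28.9% in either direction), with a median of 0.04. The 4 were Psmg4 (-0.88, SE 0.19), Psmg1, Psma7 (-0.49, SE 0.15) and Psma1 (-0.41, SE 0.14), and the 2 were Psmb8 (0.66, SE 0.17) and Psmb10. The count lower on polysomes was 2 without FD19 replicate 2, FD19 replicate 3 or P1 replicate 3.

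Other genes of the ubiquitin and proteasome pathway, taken from a list of 39 names of which 30 genes were measured, were mixed. In total RNA from FD19 to FD22, Nfe2l1, a transcription factor for proteasome genes also known as NRF1, rose (0.60) while 4 fell: the deubiquitinases of the 19S cap Uchl5 (-0.79) and Usp14 (-0.48), the cap-associated Txnl1 (-0.47) and Pomp (-0.42), the maturation factor of the core. Nfe2l1 had total RNA signals of 255, 203 and 208 at FD19, 356, 303 and 353 at FD22, and 292, 309.6 and 335 at P1, so the FD19 arrays were the lowest. The 1 rise and 4 falls in total RNA are near the background, where 8.42% of all probe sets rose and 7.82% fell. The median of the 30 genes was -0.16. Their mean ratio was higher on polysomes for 9 and lower for 7, with a median of 0.08, which is near the 24.9% higher and 22.2% lower over all genes. Pomp (0.44) and Txnl1 (0.62) were higher, like most subunits, whereas the ubiquitin receptor of the cap Adrm1 (-0.93), the small lid subunit Sem1 (-1.01) and the ubiquitin-activating enzyme Uba6 (-1.24) were lower.

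Across birth the pathway genes called on polysomes were Nploc4 (0.58), a cofactor of the segregase Vcp, the shuttle factor Ubqln1 (0.40) and the conjugating enzyme Ube2d1 (-1.12). These are 3 of 30 genes, near the background of 8.34% of all probe sets. The first 2 of them also rose in total RNA (0.58 and 0.46), and no other of the 30 genes was called there. In the ratio change 0 of the 30 were called in any pair of stages with limma.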

How the data were processed

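Deposited values were linear signal intensities, one per probe set and array of the Affymetrix Rat 230 2.0 array, scaled by the authors, as deposited, to trimmed means (2% off each end) of 150.03 to 150.04 in all 18 arrays. GCOS 1.4 is named per the submitters' processing notes, and the signal algorithm is not given in the sources used here. Biotin-labelled cRNA was hybridised, per the labels' protocols. Scaling makes each array relative to its own mRNA pool, so a change in total mRNA per cell is not seen. The labels give separate litters, and no array processing batch.

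From these, log2(intensity + 5.5) was fitted for 21675 of 31042 probe sets (above 40.8, the 40th percentile, in at least 3 arrays) with limma 3.58.1 in R 4.3.3, 6 group means, empirical Bayes with a trend, 12 residual degrees of freedom and Benjamini-Hochberg adjustment over all probe sets within a comparison. Members, gene lists and tests were chosen with earlier results of these data known. Named are up to 6 called genes per direction with the largest change, or the 3 with the smallest p where none was called, at least 1 gene of each role, and a fixed set (Psmb5, Psmb7 to Psmb10, Psme1, Psme2, Psmd4, Psmd14, Psmg1). Per-array values of Psmc5, Psmd8, Tap1, Isg15 and Nfe2l1, and the comparison of ratios between P1 and FD19, were added after values were seen.

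Total and polysomal arrays of a lysate pair by design, and their deviations from the group means correlated (r from 0.186 to 0.488 in the 9 lysates). Between stages, arrays of the same number had r of 0.226 to 0.498 for polysomal FD19 with FD22, where 6 of 6 arrays correlated best with their own number. For total FD19 with P1, r was 0.119 to 0.313 and 4 of 6 did so. In the other stage pairs at least 1 r was under 0.1. The arrays numbered 1 had the highest r in every stage pair. All 44 genes matched the RefSeq gene table by identifier and 40 a promoter window. Motifs were searched as letters on both strands. Array number, 3 a group, limits the precision. Alternatives were other constants, filters, normalizations, variance models, probe set rules, blocks and omitted replicates. The fitting code was tested on simulated data.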

Additional observations from a re-analysis of the deposited data

Results flagged for a closer look

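Psmb10 drew attention because its polysomal over total ratio had opposite signs at the first and last stage: -0.62, -0.01 and -0.13 in the FD19 lysates and 0.23, 0.44 and 0.44 in the P1 lysates. The difference in log2 ratio was 0.63 (SE 0.21), and it was not called by limma (adjusted p = 0.285, and 0.145 with the lysate as a block). No ratio of Psmb10 at a single stage was called (-0.25 at FD19, -0.12 at FD22 and 0.37 at P1), except that at P1 with the arrays centred on their medians (0.57, adjusted p = 0.0111). FD19 lysate 1 was the lowest of the 9. The cause was not tested.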

How the results depend on the processing

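Of 404 counts of called genes recomputed under an alternative, 347 stayed within 1.5 times and 57 moved. The 347 include counts that were 0 in both fits, as for most of the ratio changes, so they overstate how stable the calls are. Of 168 gene calls, 69 were kept under every alternative, and 4 of 8875 gene values reversed. These 4 were Psme1 with its probe sets averaged, whose ratio was -0.57 at FD19, -0.83 at FD22, -0.51 at P1 and -0.63 over the stages. The filter at the 60th percentile removed Psmb8 and left 1 higher in total RNA and 1 on polysomes from FD19 to FD22, 0 and 1 from FD19 to P1, and 9 on polysomes from FD22 to P1. Quantile normalization gave 3 higher and 0 lower in that last step. Median centring moved the median ratio of all probe sets from -0.07, -0.08 and -0.09 to 0.10, 0.15 and 0.11 at FD19, FD22 and P1. It gave 9 higher and 0 lower on polysomes and 1 higher in total RNA from FD22 to P1, 32 higher and 0 lower in the ratio at FD22, and 0, 1 and 1 lower in the ratio at FD19, at P1 and over the stages. Averaged probe sets gave 8 higher on polysomes from FD22 to P1 and 2 lower in the ratio at FD22. Arrays numbered 2 and 3 gave 7 lower in total RNA from FD19 to FD22, 1 lower from FD22 to P1 and 0 higher from FD19 to P1. On polysomes they gave 1, 0 and 1 higher and, from FD22 to P1, 0 lower, and in the ratio 0 lower at FD19 and 2 at FD22. Pairing by lysate as a block added 1 higher ratio change from FD19 to P1. Replicate number as a block gave 12 higher on polysomes and 1 lower in total RNA (Psmb9, adjusted p = 0.0339) from FD22 to P1, where numbers share no known source. From FD19 to FD22 that block gave 24 lower in total RNA and 12 on polysomes. With the 3 arrays of a group reduced by 1, the count lower from FD19 to FD22 ranged from 8 to 18 in total RNA and 1 to 8 on polysomes. From FD19 to P1 on polysomes, 2 to 5 were lower and 2 to 3 higher. From FD22 to P1, 0 to 7 were higher and 0 to 2 lower on polysomes and 0 to 1 lower in total RNA. In the ratio, 5 to 15 were higher and 0 to 1 lower at FD19, 7 to 12 and 0 to 1 at FD22, and 19 to 22 and 1 to 2 at P1, and 32 to 35 and 2 to 3 over the stages. The cause of these changes was not tested beyond the fewer samples or genes that some settings hold. Groups of 3 arrays limit every call, and dim genes such as Psmb8 at FD19 depend on the constant added.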
